A study of Homo sapiens with 6 samples.

Results

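Heme breakdown and iron handling were followed through 10 genes in human melanoma cells with and without depletion of NFKBIZ, the gene of the nuclear co-regulator IκBζ. The 10 genes are HMOX1, HMOX2, BLVRA, BLVRB, FTH1, FTL, TFRC, SLC40A1, SLC48A1 and BACH1, and their rows were taken by symbol from 47432 genes in each table. They were chosen from measured values of the same comparison, because HMOX1 was known to be strongly raised in shNFKBIZ cells. The question was whether that rise was shared by its pathway and by other genes that the repressor BACH1 is known to control. The levels and changes of the 10 genes are therefore descriptions, no P value is given for any of them, and counts of members past a limit are printed only beside the share of all genes.

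The cells were LOX-IMVI, an established human melanoma line cultured in RPMI-1640 with fetal calf serum. They had been transduced with lentiviral vectors that express a control shRNA (shCtrl) or an shRNA against NFKBIZ (shNFKBIZ), with 1 hairpin in each group, and selected with puromycin. No further agent was named for either group. RNA-seq was carried out on total RNA, with 3 libraries per group. The study describes its replicates as independent experiments. Whether they were separate transductions or cultures of 1 transduced population was not stated. An SD is the spread between the libraries of a group, while an SE comes from a fit that shares information on variability between genes.

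The libraries held 22264473 to 24624839 total exon reads, and no pair within a group agreed within sampling noise. NFKBIZ fell from 44.5 ± 4.12 TPM (SD, n = 3) to 13.7 ± 0.362 TPM in the shNFKBIZ libraries, a log2 fold change of -1.78 (SE 0.058). TPM is a level scaled by exon length, which covers all annotated exons of a gene, and by the library total. A ratio of TPM between genes is therefore not a count of molecules. The label of melanoma cells was set beside defining markers. Of 8 melanocyte markers, 7 were under 1 TPM in every library, MLANA, SOX10 and S100B had no reads, and only MITF reached 1 TPM. The summed melanocyte level was 3.19 to 4.23 TPM in shCtrl and 1.79 to 2.62 TPM in shNFKBIZ cells. Of 5 macrophage markers, 4 were under 1 TPM in every library, and the sum of 96.9 to 100.4 TPM in shCtrl and 198.5 to 199.8 TPM in shNFKBIZ cells was almost entirely CD68. Of 1238 to 2546 CD68 exon reads per library, only 77 to 89 in shCtrl and 160 to 182 in shNFKBIZ libraries were uniquely mapped. Of 4 fibroblast markers, only PDGFRA reached 1 TPM, and their sum was 3.04 to 3.67 TPM in shCtrl and 11.4 to 12.2 TPM in shNFKBIZ cells. Of 5 erythroid markers, only HBA1 reached 1 TPM in any library, and their sum was 0.616 to 1.51 TPM in shCtrl and at most 0.0396 TPM in shNFKBIZ cells. HBA1 had 3, 5 and 6 exon reads in the shCtrl libraries, none of them uniquely mapped. The part of these markers in the results was not tested.

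Heme is broken down by heme oxygenase into biliverdin, carbon monoxide and ferrous iron, and biliverdin reductase converts biliverdin into bilirubin. The released iron is stored in ferritin, a shell of heavy and light chains, or leaves the cell through ferroportin, while new iron enters as transferrin bound to its receptor. BACH1 represses HMOX1 and other genes as a heterodimer with small MAF proteins on elements that NRF2 also uses, and heme releases BACH1 from DNA and promotes its degradation. Translation of the ferritin and ferroportin mRNAs and stability of the transferrin receptor mRNA are set by iron regulatory proteins that bind stem-loops in the untranslated regions (UTRs).

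The 12 kb before each gene start were searched on hg38, on both strands, for the MAF and BACH1 element in a strict form (TGACTCAGC) and a loose form (TGACNNNGC). The strict form was found before 14.8% of 13827 tested genes and the loose form, which contains the strict one, before 98.3%. Before HMOX1 there were 4 strict matches, at 8.34, 8.28, 8.25 and 3.20 kb from the start, and only 2 tested genes, HMOX1 included, had that many. The first 3 lie within 96 bases of each other. The sequences are shown because they are the known binding element beside the member that changed most, with strict matches in capitals and each sequence read on the strand of its gene.
HMOX1 chr22:35372009-35372124, plus strand: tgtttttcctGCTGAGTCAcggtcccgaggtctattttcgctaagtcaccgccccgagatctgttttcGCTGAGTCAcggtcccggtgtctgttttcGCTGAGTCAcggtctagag
HMOX1 chr22:35377146-35377175, plus strand: gctagattttGCTGAGTCAccagtgcctcc
BLVRA chr7:43756775-43756804, plus strand: tgtactggtcTGACTCAGCaagtgaacatc
FTH1 chr11:61972033-61972062, minus strand: cctagcagagtGCTGAGTCAcggtgggaca
FTL chr19:48963932-48963961, plus strand: gagctcagcaTGACTCAGCagtcgctgcct

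BLVRA, FTH1 and FTL each had 1 strict match, at 1.89, 4.41 and 1.36 kb before the start, and the window before BACH1 is not reported here. HMOX2, BLVRB, TFRC, SLC40A1 and SLC48A1 had none in this window. The presence of a match did not go with 1 direction of change, since BLVRA with 1 match was lower in shNFKBIZ cells and HMOX1 with 4 was higher. The RefSeq promoter table (GRCh38.p14, 250 bases before to 50 after the start) held 8 of the 10 genes, with no entry for HMOX1 and FTH1. None of the 8 promoters held the strict or the loose form, which 0.564% and 13.6% of 27305 promoters held. The 12 kb windows were counted from the outermost annotated end of each gene, which can differ from the RefSeq start. The SLC48A1 promoter, at chr12:47772988-47773287, lies inside the gene, so the 12 kb before that promoter were not the window searched. The SLC40A1 promoter, at chr2:189580737-189581036, also lies inside its gene, and the 12 kb before it were not fully searched. A match is a string of letters and not a measured binding site, and binding was not measured here.

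**Figure D1:**
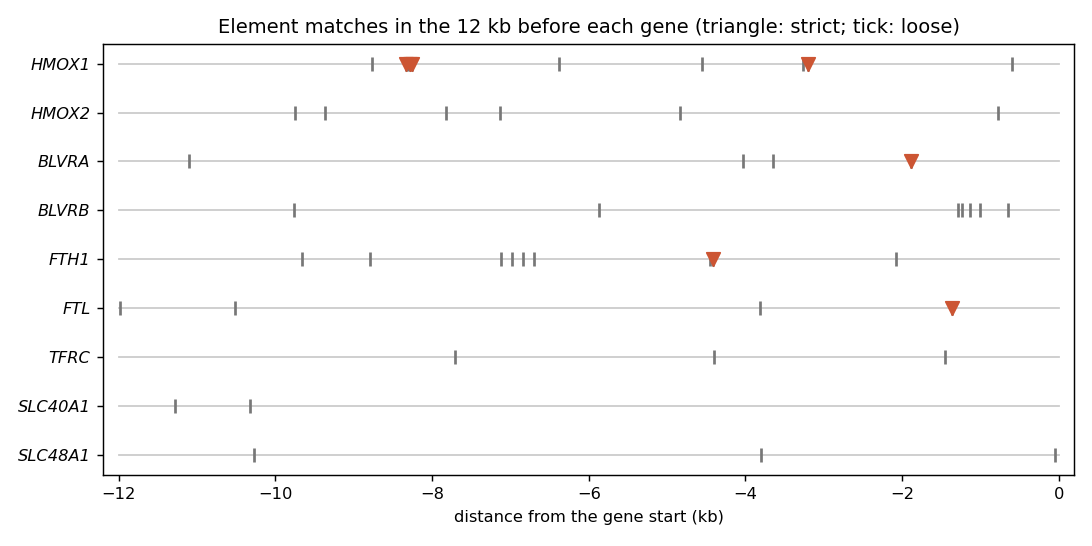
Matches to the strict (triangles) and loose (ticks) element in the 12 kb before 9 of the 10 genes (BACH1 is not shown), by distance from the gene start in kb. HMOX1 carries 4 strict matches, 3 of them close together at about 8.3 kb, and BLVRA, FTH1 and FTL carry 1 each.

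Among the heme oxygenases, the inducible enzyme HMOX1 was higher and the constitutive enzyme HMOX2 lower in shNFKBIZ cells. HMOX1 (ENSG00000100292, chr22:35380361-35394214, plus strand) measured 20.72, 21.86 and 20.98 TPM in the shCtrl libraries. In the shNFKBIZ libraries it measured 321, 316 and 311 TPM. All shNFKBIZ libraries lay far above all shCtrl libraries, and the spread within a group was small. The log2 fold change of its exon reads was 3.81 (SE 0.0488), which is 14.1-fold higher, and it held rank 10 from the highest among 13843 genes tested. By mean TPM HMOX1 moved from rank 6109 to rank 396 of the genes with a read. These are bulk samples, in which a change in the share of expressing cells and a change in RNA per cell cannot be told apart.

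HMOX2 (ENSG00000103415, chr16:4474690-4510347, plus strand) measured 70.5, 70.0 and 73.2 TPM in shCtrl and 40.6, 38.0 and 40.6 TPM in shNFKBIZ libraries. The groups did not overlap. Its log2 fold change was -0.92 (SE 0.0493), or 1.90-fold lower, just short of the 2-fold limit used here. HMOX2 overlaps NMRAL1 on the other strand over 3.05% of its exon bases, and strand was not used in the counting. Reads across HMOX2 exon junctions, which such an overlap does not give, changed by -0.99 (SE 0.0754) on the log2 scale.

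The makeup of the heme oxygenase transcripts turned over between the groups. HMOX1 and HMOX2 together rose from 92.5 ± 1.55 to 355.7 ± 4.94 TPM (SD, n = 3). The HMOX1 share of this sum was 22.7, 23.8 and 22.3% in shCtrl and 88.8, 89.3 and 88.5% in shNFKBIZ libraries. By TPM, HMOX2 was thus the larger part in every shCtrl library and HMOX1 in every shNFKBIZ library. The ratio of HMOX1 to HMOX2 TPM was 0.298 ± 0.0132 in shCtrl and 7.96 ± 0.330 in shNFKBIZ cells.

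The biliverdin reductases did not follow HMOX1. BLVRA (ENSG00000106605, chr7:43758680-43807342, plus strand), which reduces the biliverdin that heme oxygenase makes, measured 35.6, 33.1 and 33.5 TPM in shCtrl and 9.57, 10.4 and 12.2 TPM in shNFKBIZ libraries. The groups did not overlap, and the log2 fold change was -1.75 (SE 0.0976), or 3.36-fold lower. BLVRB (ENSG00000090013, chr19:40447765-40465764, minus strand), a flavin reductase that acts on another biliverdin isomer, measured 49.2, 54.9 and 55.2 TPM in shCtrl and 53.1, 51.0 and 49.7 TPM in shNFKBIZ libraries. These values overlapped, with a log2 fold change of -0.13 (SE 0.0644). Together the reductases measured 87.1 ± 2.08 TPM in shCtrl and 62.0 ± 0.660 TPM in shNFKBIZ cells. The BLVRA share of their sum was 39.1 ± 2.48% in shCtrl and 17.3 ± 2.24% in shNFKBIZ cells.

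**Figure D2:**
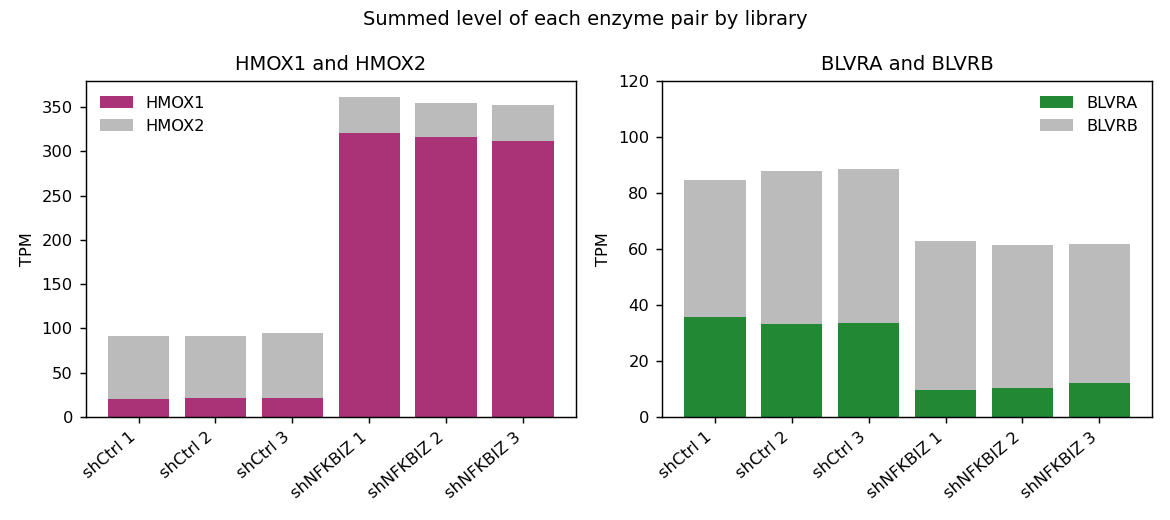
TPM of HMOX1 and HMOX2 (left) and of BLVRA and BLVRB (right), stacked for each of the 6 libraries. The heme oxygenase sum rises from about 92.5 to 355.7 TPM with HMOX1 as the main part, while the reductase sum falls from 87.1 to 62.0 TPM with a smaller BLVRA part.

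The ferritin chains, which store the iron that heme oxygenase releases, were among the most abundant transcripts in both groups and changed little. FTL (ENSG00000087086, chr19:48965309-48966879, plus strand), the light chain, measured 12870, 13713 and 13184 TPM in shCtrl and 13818, 12930.0 and 13493 TPM in shNFKBIZ libraries. The groups overlapped, and by mean TPM it held rank 6 in shCtrl and 7 in shNFKBIZ cells. FTH1 (ENSG00000167996, chr11:61959718-61967634, minus strand), the heavy chain with ferroxidase activity, measured 2117, 2150.0 and 1987 TPM in shCtrl and 2194, 2183 and 2173 TPM in shNFKBIZ libraries. In TPM the FTH1 groups did not overlap, but after TMM scaling they did, and the difference was small on both scales. The log2 fold changes were -0.06 (SE 0.0390) for FTL and -0.02 (SE 0.0382) for FTH1, and both turned positive when libraries were scaled by their size alone, to 0.03 and 0.07. The ratio of FTL to FTH1 TPM was 6.36 ± 0.278 in shCtrl and 6.14 ± 0.197 in shNFKBIZ cells.

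Processed copies of the ferritin genes can share reads with them. GENCODE release 44 names 25 FTH1 and 16 FTL pseudogenes, and none of them was a row of the tables. All FTH1 and FTL exon reads were recorded as uniquely mapped. Junction reads changed by 0.02 (SE 0.0370) for FTH1 and -0.01 (SE 0.0351) for FTL on the log2 scale. Processed copies hold the joined exon sequence, so junction reads cannot tell them from their parent genes.

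Iron enters the cell through TFRC, the transferrin receptor (ENSG00000072274, chr3:196012511-196082153, minus strand). It measured 151, 144 and 156 TPM in shCtrl and 142, 139 and 141 TPM in shNFKBIZ libraries. Its log2 fold change was -0.18 (SE 0.0335), so that the groups lay close together without overlap. SLC40A1 (ENSG00000138449, chr2:189560590-189583758, minus strand), the iron exporter ferroportin, had 0 exon reads in all 6 libraries and was not tested. A count of 0 allows up to 3 reads per library, for counting error only.

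SLC48A1 (ENSG00000211584, chr12:47753916-47782751, plus strand), which carries heme out of endosomes and lysosomes, measured 11.6, 13.2 and 12.6 TPM in shCtrl. It measured 10.9, 11.5 and 12.1 TPM in shNFKBIZ libraries. The groups overlapped in TPM, and the log2 fold change was -0.20 (SE 0.0760). SLC48A1 shares 0.611% of its exon bases with HDAC7, a well-expressed gene on the other strand, and 1.69% with RAPGEF3. Its junction reads, 30 to 47 per library, gave 0.10 (SE 0.210), opposite in sign to the exon change and smaller than its error.

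BACH1 (ENSG00000156273, chr21:29194071-29630751, plus strand), the heme-binding repressor of HMOX1, measured 87.6, 85.1 and 83.2 TPM in shCtrl libraries. In shNFKBIZ libraries it measured 58.9, 54.2 and 59.1 TPM. The groups did not overlap, and its log2 fold change was -0.65 (SE 0.0450), or 1.57-fold lower. The ratio of HMOX1 to BACH1 TPM was 0.249 ± 0.0107 in shCtrl and 5.51 ± 0.287 in shNFKBIZ cells. BACH1 transcript and HMOX1 transcript thus moved in opposite directions, and BACH1 protein was not measured in these libraries.

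**Figure D3:**
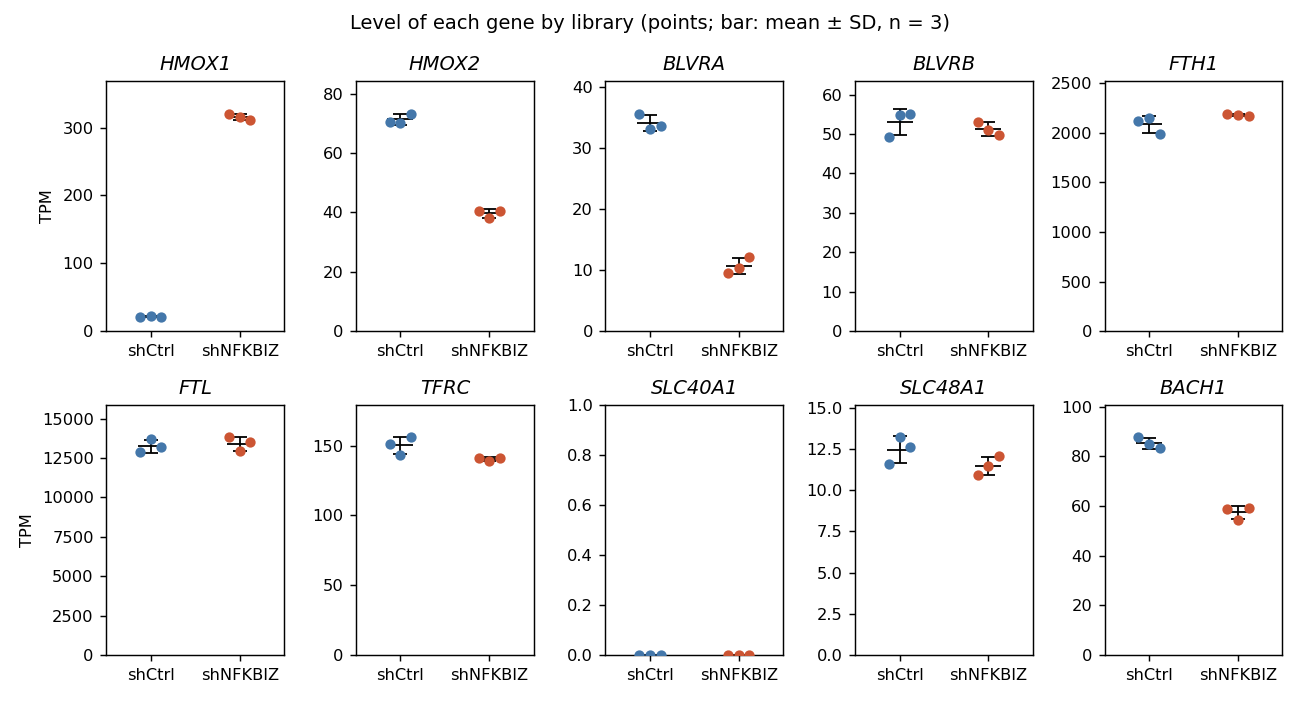
TPM of each of the 10 genes in the 3 shCtrl (blue) and 3 shNFKBIZ (red) libraries, on linear axes that start at 0 and differ between panels, with the mean ± SD as black bars. HMOX1 is higher, HMOX2, BLVRA and BACH1 are lower in every shNFKBIZ library, and SLC40A1 is at 0 throughout.

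Across the members, 9 of 10 passed the filter on low counts. With an adjusted P ≤ 0.05 and a change of 2-fold or more, HMOX1 was higher and BLVRA lower. Of all genes tested, 8.96% were past this limit, 3.84% higher and 5.12% lower. With an adjusted P ≤ 0.05 and any fold change there were 6 of the 9 (HMOX1, HMOX2, BLVRA, TFRC, SLC48A1 and BACH1), against 65.3% of all genes. The same 6 did not overlap between the groups in CPM, which is the count scaled by library size and TMM factor, against 68.7% of all genes. The members were chosen on this comparison, and nothing is read from these counts. Their median log2 fold change was -0.18, beside 0.00 over all genes tested.

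Intron reads come largely from transcripts that are not yet spliced, and were fitted separately. HMOX1 had 6, 7 and 13 intron reads in shCtrl and 80, 74 and 72 in shNFKBIZ libraries, without overlap. Its intron log2 fold change was 3.01 (SE 0.243), and its exon change exceeded this by 0.79 (SE 0.331). Without shCtrl replicate 3, which had the most intron reads of its group, the excess was 0.34 (SE 0.432). The intron change was thus large and in the direction of the exon change, on few reads in shCtrl.

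BLVRA, with 9 to 41 intron reads per library, changed by -1.57 (SE 0.301) in introns, a difference from its exon change of -0.17 (SE 0.318). HMOX2 changed by -0.94 (SE 0.170) in introns, a difference of 0.02 (SE 0.172). BACH1, with 758 to 1300 intron reads, changed by -0.74 (SE 0.0569), a difference of 0.09 (SE 0.0668). For these 3 genes the exon and intron changes lay within 2 SE of each other.

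FTH1 was the member whose exon and intron changes parted most clearly relative to the error. It had 71, 72 and 68 intron reads in shCtrl and 100, 123 and 123 in shNFKBIZ libraries, and its intron log2 fold change was 0.62 (SE 0.131). The exon minus intron difference was -0.64 (SE 0.129). BEST1, on the other strand, shares 63.2% of the FTH1 exon bases but had 147 exon reads over all libraries. FTL changed by 0.18 (SE 0.0904) in introns, TFRC by -0.53 (SE 0.137), BLVRB by -0.42 (SE 0.165) and SLC48A1 by -0.12 (SE 0.173).

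Of the 9 members, HMOX1 and BLVRA changed at least 2-fold in intron reads with an adjusted P ≤ 0.05, as did 6.60% of 12119 genes. None of the 9 differed at least 2-fold between exon and intron changes by the same limit, as 2.68% of 11025 genes did. Nothing is read from these counts either, since the intron reads come from the comparison that chose the members.

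**Figure D4:**
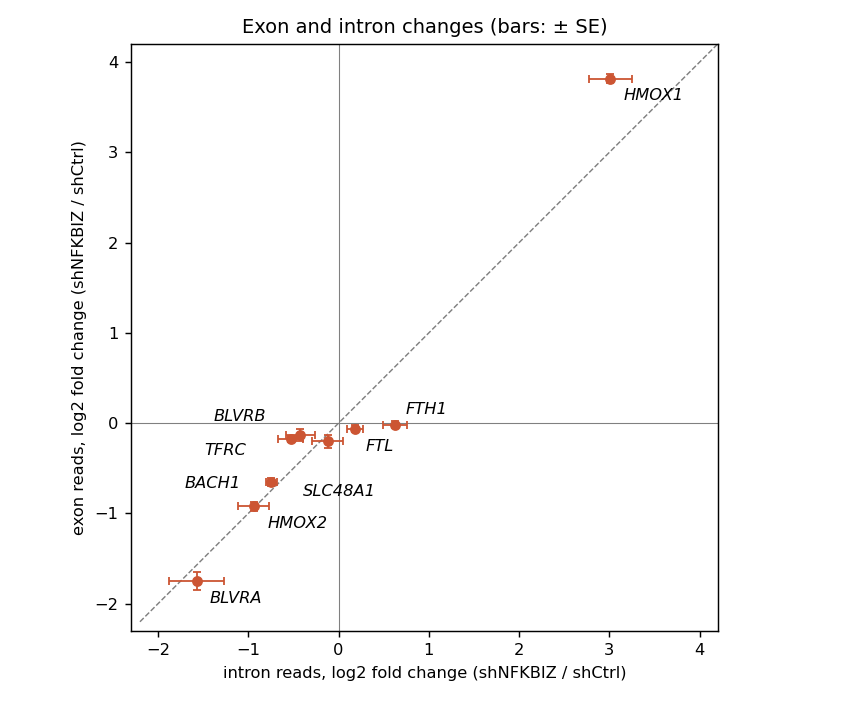
Log2 fold change (shNFKBIZ over shCtrl) of exon reads against that of intron reads for the 9 members tested, with ± SE bars and a dashed line of equal change. HMOX1 lies at 3.01 in introns and 3.81 in exons, BLVRA at -1.57 and -1.75, and FTH1 stands off the line with 0.62 in introns and -0.02 in exons.

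To describe whether the HMOX1 rise was shared, 15 further genes known as BACH1 targets were taken, all of which were tested. The members were left out of this list. Its counts therefore do not cover FTH1, FTL and SLC48A1, with exon log2 fold changes of -0.02, -0.06 and -0.20, or SLC40A1, without exon reads. GCLM, a subunit of the enzyme that starts glutathione synthesis, and OSGIN1, an oxidative stress-induced growth inhibitor, rose past the limit. ITPR2, an endoplasmic reticulum calcium channel, fell past it. That is 2 higher and 1 lower of 15, beside the 3.84% higher and 5.12% lower of all genes. By an adjusted P ≤ 0.05 alone, 8 were higher, 6 lower and 1 did not pass, while 4496 of the 13843 genes tested were higher and 4543 lower. The median log2 fold change of the targets was 0.17 beside 0.00 over all genes. No target moved as far as HMOX1. All lists used here were chosen with earlier results of these data known. The adjusted P values of their genes, some named after their values were seen, describe the fit and are not independent support.

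GCLM measured 33.5, 32.9 and 33.6 TPM in shCtrl and 74.6, 73.1 and 77.9 TPM in shNFKBIZ libraries. The difference was 1.09 on the log2 scale (SE 0.0446, with an adjusted P of 3.54e-15 by the edgeR quasi-likelihood test). OSGIN1 measured 6.25, 7.36 and 6.58 TPM in shCtrl and 20.2, 20.7 and 19.4 TPM in shNFKBIZ libraries, so that log2 expression differed by 1.49 (SE 0.0725, edgeR adjusted P 7.27e-14). Neither gene overlapped between the groups, and both changed less than HMOX1. ITPR2 changed by -1.09 (SE 0.0430, edgeR adjusted P 1.86e-15), and by -0.95 when exon and intron reads were counted together, which is under the 2-fold limit.

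Among the targets short of 2-fold, the quinone reductase NQO1 changed by 0.66 (SE 0.0336, edgeR adjusted P 1.59e-13) and the autophagy receptor SQSTM1 by 0.55 (SE 0.0337, adjusted P 4.37e-12). The cystine transporter SLC7A11 changed by 0.17 (SE 0.0485, adjusted P 0.0043). Lower in shNFKBIZ cells were the glycolytic hexokinase HK2 at -0.98 (SE 0.0417, edgeR adjusted P 7.87e-15) and the sulfiredoxin SRXN1 at -0.80 (SE 0.0375, adjusted P 4.11e-14). The malic enzyme ME1 was at -0.53 (SE 0.0606, adjusted P 9.73e-08). Of 1703 to 3034 SRXN1 exon reads per library, only 160 to 177 in shCtrl and 82 to 85 in shNFKBIZ libraries were uniquely mapped. SRXN1 intron reads, none of them uniquely mapped, changed by 0.715 (SE 0.252), opposite in sign to its exon reads. GCLC, the partner subunit of GCLM, changed by 0.00 (SE 0.0462, adjusted P 0.959). The targets therefore moved in both directions while HMOX1 rose 14.1-fold. The list did not divide the targets by whether BACH1 represses or activates them.

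Of the 15 targets, 3 had a strict match in the 12 kb before the start, NQO1 and ME1 among them, beside 14.8% of all tested genes. GCLM and OSGIN1 had none in this window, but the OSGIN1 promoter lies inside the gene, at chr16:83952990-83953289, and the 12 kb before it were not this window. None of the 15 had more than 1 strict match in this window, against 4 before HMOX1. With 12 kb on either side, the most among the targets was 2, as for MAFG, against 5 for HMOX1. No link between matches and changes was tested.

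No partner or regulator of BACH1 in the list moved as far as HMOX1. Of 9 genes tested, none passed the 2-fold limit, beside 8.96% of all genes, and the median log2 fold change was -0.10. By an adjusted P ≤ 0.05 alone, 2 were higher and 5 lower, beside 65.3% of all genes in either direction. NFE2L2, which encodes the activator NRF2, changed by -0.14 (SE 0.0383, edgeR adjusted P 0.00242), and KEAP1, its inhibitor, by 0.55 (SE 0.0509, adjusted P 3.59e-09). Of the small MAF partners, MAFK changed by -0.95 (SE 0.0655, adjusted P 3.03e-10), MAFF by -0.46 (SE 0.0706, adjusted P 1.1e-05) and MAFG, itself a BACH1 target, by 0.34 (SE 0.0405, adjusted P 2.36e-07). The ubiquitin ligase subunits that degrade BACH1 differed from each other, with FBXO22 at -0.04 (SE 0.0429, adjusted P 0.474) and FBXL17 at -0.80 (SE 0.0814, adjusted P 1.83e-08).

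Heme synthesis and transport gave no gene past the 2-fold limit, among 8 and 8 tested, beside 8.96% of all genes. The medians were -0.07 for synthesis and 0.00 for transport. ALAS1, which catalyzes the first step, changed by -0.25 (SE 0.0418, edgeR adjusted P 1.89e-05), and FECH, which inserts the iron, by -0.08 (SE 0.0603, adjusted P 0.252). FLVCR2, ABCG2 and SLC46A1 were too low to test.

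POR, the reductase that supplies heme oxygenase with electrons, changed by -0.31 (SE 0.0511, edgeR adjusted P 1.97e-05). Of the bilirubin genes, the exporter ABCC2 rose past the limit, with 1.11 (SE 0.184, adjusted P 1.68e-05) at 0.735 ± 0.0830 TPM in shCtrl and 1.69 ± 0.250 TPM in shNFKBIZ cells. It met the 2-fold limit only narrowly, and with exon and intron reads counted together it changed by 1.0 and no longer passed. UGT1A1, which conjugates bilirubin, had no exon reads.

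**Figure D5:**
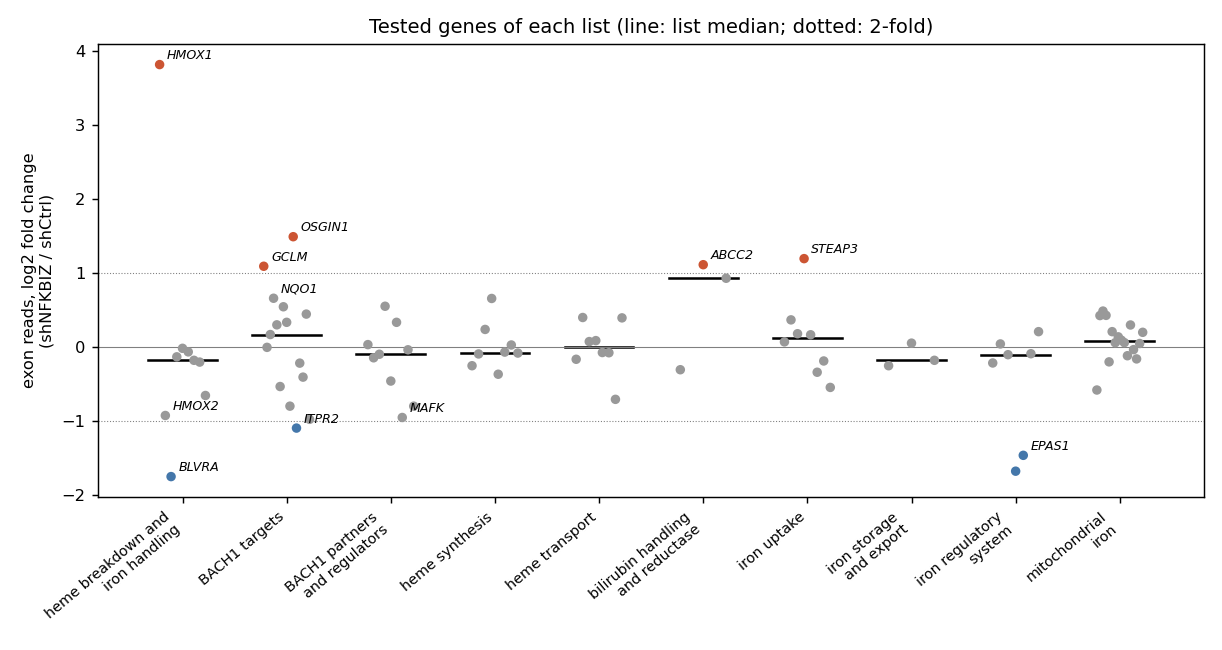
Exon log2 fold change (shNFKBIZ over shCtrl) of every tested gene in 10 lists of heme and iron genes. Black lines are list medians, dotted lines mark 2-fold, and red and blue points are genes higher and lower past the limit. HMOX1 at 3.81 stands above every other gene shown, and most points lie within 2-fold.

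The iron-responsive element, bound by the iron regulatory proteins, was searched in the UTRs of the canonical GENCODE 44 transcripts as an unpaired C, 5 paired bases, the loop CAGTGN and 5 paired bases. It was found in 0.0507% of 11840 5′ UTRs and 0.597% of 11888 3′ UTRs of tested genes. Among the members it was found in the 5′ UTR of FTH1, FTL and SLC40A1 and, 4 times, in the 3′ UTR of TFRC. The sites are shown because they mark which iron genes have this second layer of control, with the loop in capitals.
FTH1 chr11:61967573-61967602, minus strand: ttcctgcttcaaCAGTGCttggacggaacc
FTL chr19:48965335-48965364, plus strand: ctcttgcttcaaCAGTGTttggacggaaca
SLC40A1 chr2:189580660-189580689, minus strand: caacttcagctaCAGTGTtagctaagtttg
TFRC chr3:196050978-196051007, minus strand: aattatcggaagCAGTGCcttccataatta
TFRC chr3:196050574-196050603, minus strand: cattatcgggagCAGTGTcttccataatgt
TFRC chr3:196050509-196050538, minus strand: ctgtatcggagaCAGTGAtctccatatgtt
TFRC chr3:196050462-196050491, minus strand: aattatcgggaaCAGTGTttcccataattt

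The 3 members with this element that had reads, FTH1, FTL and TFRC, changed by -0.02, -0.06 and -0.18 in exon log2 fold change. Control through the 5′ UTR elements acts on translation, which RNA-seq does not measure. The iron regulatory proteins themselves changed by -0.21 (ACO1, SE 0.0423, adjusted P 0.000139, edgeR) and 0.04 (IREB2, SE 0.0468, adjusted P 0.436).

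Among other transcripts with known elements, EPAS1, a hypoxia-inducible factor, fell past the limit. EPAS1 changed by -1.46 (SE 0.0903, edgeR adjusted P 5.9e-09), and its intron change was -2.13.

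For iron uptake, 8 of 12 genes were tested, with a median of 0.12. Past the limit, 1 was higher, beside 3.84% of all genes. This was STEAP3, which reduces the iron that TFRC brings into endosomes. It measured 125, 124 and 127 TPM in shCtrl and 305, 308 and 297 TPM in shNFKBIZ libraries, so that log2 expression differed by 1.20 (SE 0.0332, edgeR adjusted P 4.77e-18). SLC11A2, the endosomal iron transporter that works after it, changed by 0.07 (SE 0.0438, adjusted P 0.163). STEAP3 thus rose while TFRC, which acts before it, was at -0.18.

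Of 8 genes for iron storage, ferritin turnover and export, 3 were tested and none passed the 2-fold limit, beside 8.96% of all genes. NCOA4, the receptor that carries ferritin to lysosomes, changed by -0.25 (SE 0.0391, edgeR adjusted P 7.86e-06). Among 16 genes for mitochondrial iron and iron-sulfur clusters, none passed the 2-fold limit, beside 8.96% of all genes, and the median was 0.08. Of the 16, 7 were higher and 3 lower by an adjusted P ≤ 0.05, which 65.3% of all genes met. These included the mitochondrial iron importer SLC25A37 at -0.58 (SE 0.0399, adjusted P 2.76e-11).

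The genes most like HMOX1 over the 6 libraries, by Euclidean distance of centered log2 CPM among 11491 candidates, were MN1 (0.564), LYPD1 (0.813), NTSR1 (0.907), MMP3 (0.956) and CALB2 (1.67). None of these is in a heme or iron list used here. Since they were picked for their likeness, no test is given.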

How the data were processed

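The authors mapped paired RNA-seq reads in CLC Genomics Workbench to GRCh38, annotated by Ensembl, and deposited whole-number counts per gene, divided into exon, intron, unique and exon-exon reads. Strand was not used. Groups came from the sample titles. TPM was recomputed from total exon counts and exon length, since the deposited values carry decimal commas. The members and all lists were chosen with earlier results of these data known.

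After filterByExpr, 13843 genes were fitted in edgeR 4.0.16 (R 4.3.3) with TMM factors and the quasi-likelihood test, two-sided, with Benjamini-Hochberg adjustment over all genes tested. Past the limit means an adjusted P of at most 0.05 and at least 2-fold. SE is the log2 fold change divided by the square root of F. Intron reads were fitted alike, and exon against intron change as an interaction with library blocks. The fits were tested on simulated data. Named genes were the members, NFKBIZ, a set of listed regulators and enzymes, up to 3 genes per direction and list past the limit with a mean of at least 50 reads, and the 5 most like HMOX1. Other genes of the lists named here (SQSTM1, HK2, SRXN1, ME1, GCLC, FBXO22, FBXL17, SLC25A37 and UGT1A1) were chosen after their values were seen. Some genes of the lists and 1 matched sequence are not reported here.

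Coordinates are those of the files, which all 10 members share with GENCODE 44, on hg38. Sequences came from hg38 and, for promoters, the RefSeq table. Replicate numbers were checked for pairing by correlating deviations from the group means. Alternatives are listed with their effects under the dependence on processing. DESeq2 1.42.0 was one of them.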

Additional observations from a re-analysis of the deposited data

How the results depend on the processing

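The HMOX1 exon change of 3.81 lay between 3.79 and 3.90 under DESeq2, RLE factors, scaling by library size alone, a filter of 10 counts per library or none, unique exon reads, total gene reads, a replicate block, removal of the 10 most abundant genes, leaving out each library, and exon-exon reads, which were added after the data were seen. The BLVRA change lay between -1.86 and -1.62, HMOX2 between -0.99 and -0.83 and BACH1 between -0.70 and -0.56.

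The 1241 genes past the limit became 700 with exon-exon reads and 9039 with no fold limit, and the 3 BACH1 targets became 14 with no fold limit. The BACH1 targets with a strict match became 6 when the window covered 12 kb on either side of the start, and the HMOX1 matches became 5. With library size alone, 53.4% of the calls were higher instead of 42.9%, and the median of all genes was 0.09. FTH1 was also 0.01 without shCtrl replicate 2 and 0.02 with exon-exon reads. MAFK was -1.01 without shCtrl replicate 3 and -1.02 without shNFKBIZ replicate 2, past the limit. HMOX2 intron reads gave -1.06 without shCtrl replicate 2 and -1.01 without shNFKBIZ replicate 3. The causes were not tested.

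Deviations of same-numbered libraries had small correlations (0.0207, 0.0561 and 0.0288), so no large effect shared by a number was seen. Whether the numbers pair the libraries cannot be decided from this, since a small shared effect could be missed. A replicate block gave 1244 genes past the limit, 533 higher and 711 lower, and changed no call of a member. Intron reads of HMOX1 and BLVRA, SLC48A1 junction reads and SLC40A1 are limited by depth.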
